A study of Mus musculus with 7 samples.

Results

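The data described here are the liver signals of 10 genes for apolipoproteins and for the assembly of very low density lipoprotein (VLDL): Apob (ENSMUSG00000020609), Mttp (ENSMUSG00000028158), Apoa1 (ENSMUSG00000032083), Apoa2 (ENSMUSG00000005681), Apom (ENSMUSG00000024391), Apoa4 (ENSMUSG00000032080), Apoa5 (ENSMUSG00000032079), Apoc1 (ENSMUSG00000040564), Apoc3 (ENSMUSG00000032081) and Apoe (ENSMUSG00000002985). They were picked by name, not by their values, though with earlier results of these data known. They are 10 of the 33426 Ensembl IDs on each array. All 10 had a row in the table and all 10 passed the filter on dim IDs, which left 20055 IDs for testing. The series asks how bitter melon juice acts on the livers of obese mice.

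The BMJ + DIO group held 4 wild-type male C57BL/6J mice, and the DIO group held 3. Both groups ate a diet with 60% of its energy as fat from week 4 to week 16 of life, which makes this inbred strain obese, and for 40 days after that. During those 40 days the BMJ + DIO mice were also given freeze-dried juice of bitter melon (BMJ, Momordica charantia) by mouth through a gavage tube, at 200 mg per kg body weight each day. The protocol names no gavage of the DIO mice, so juice and gavage cannot be told apart, and no lean mice were analysed here. The labels put the age of all mice at 16 weeks although feeding ran past it. Each array carried RNA from 1 liver.

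Liver packs triglyceride and cholesterol ester around a single copy of apolipoprotein B, with the help of microsomal triglyceride transfer protein, and secretes the particle as VLDL. Smaller exchangeable apolipoproteins then join it or the high density lipoproteins (HDL), where they activate or inhibit the enzymes and transfer proteins of plasma and guide particles to liver receptors. Hepatocytes are a main source of most of these proteins, and the intestine makes several of them too.

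No member passed the test for a difference between the groups. In limma's moderated test 0 of 10 members passed a Benjamini-Hochberg adjusted p of 0.05, and neither did any other ID (0% of 20055). The count at an unadjusted p under 0.05 was also 0 of 10, against 6.41% of all tested IDs, and 0 of 10 differed at least 1.5-fold, against 5.06%. In 0 of 10 members did the 4 BMJ + DIO livers all lie on one side of the 3 DIO livers, against 3.52% of tested IDs. Mean values were higher in BMJ + DIO for 9 of 10 members, against 55% of tested IDs, with Apoa2 the exception. The count was 4 of 10 after cyclic loess (48.5% of tested IDs) or quantile normalization (49.2%). It was 2 of 10 after scaling the arrays to equal mean and SD (46.9%). The median difference over the 10 members was 0.13 on the log2 scale, and over all tested IDs it was 0.024. Such a majority was common among bright IDs: 1489 IDs averaged at least 7 on the log2 scale, 85% of these were higher in BMJ + DIO, and their median difference was 0.22. For 5 of 10 members the 95% interval reached 1.5-fold in at least 1 direction, against 42.6% of all tested IDs.

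Single DIO arrays bear on all of these values. DIO replicate 3 gave the lowest of the 7 values for 9 of 10 members and lay below the 7-array median for all 10, with a median deviation of -0.47. On the same array all IDs averaging at least 7 had a median deviation of -0.57. It correlated with the remaining arrays at 0.924 on average, and the remaining arrays at 0.964 to 0.969. Without it, 6 of 10 members were higher in BMJ + DIO, against 47% of tested IDs, and the median difference over the 10 members was 0.047. DIO replicate 1, in contrast, lay at or above the median for every member and gave the highest value for 3 of them, Apoa2, Apoc1 and Apoc3. Without it, 3 of 10 members reached an unadjusted p under 0.05 in limma (Apob, Apoc3 and Mttp), against 29.1% of all tested IDs. At the adjusted threshold 0 of 10 members passed, and neither did any other tested ID. RNA quality and cell composition were not tested here. In whole liver, fewer cells of a type and less RNA per cell cannot be told apart.

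**Figure D1:**
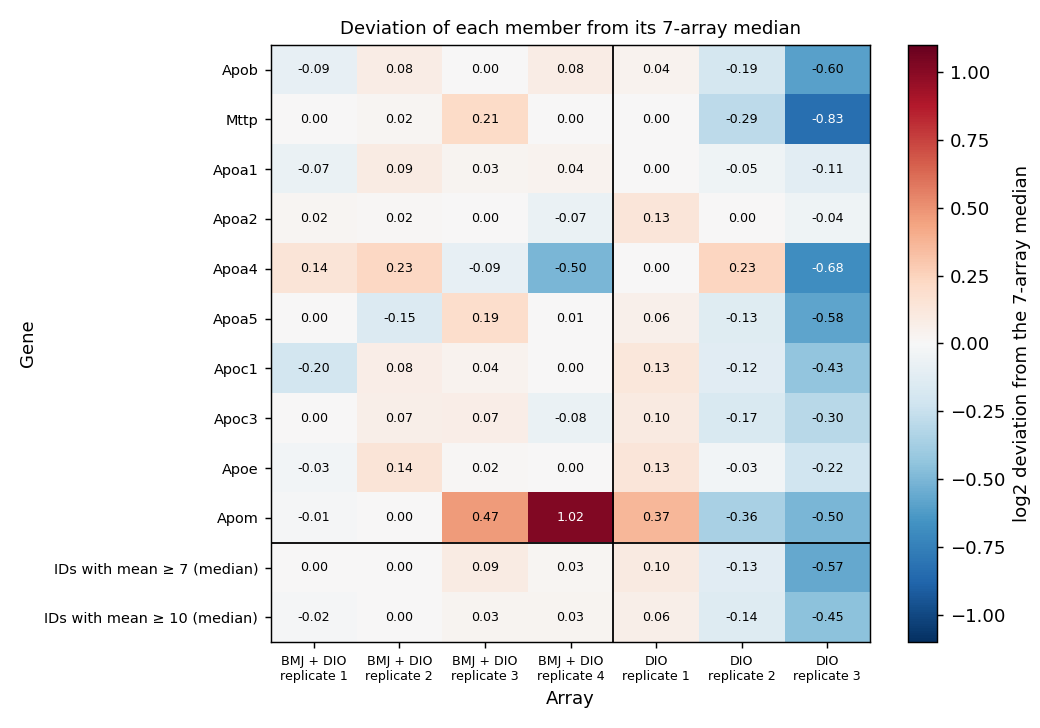
Log2 deviation of each member (rows) from its own 7-array median on each array (columns, BMJ + DIO left, DIO right); the bottom rows give the median deviation of all IDs with a mean log2 value of at least 7 or at least 10. DIO replicate 3 is below the median for all 10 members and for both sets of bright IDs, while Apom on BMJ + DIO replicate 4 stands 1.02 above its median.

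Mttp and Apob, the assembly machinery itself, were taken first. Mttp encodes the transfer protein that loads lipid onto growing apolipoprotein B. Its log2 values were 7.60, 7.62, 7.81 and 7.60 in the BMJ + DIO livers, against 7.60, 7.31 and 6.77 in the DIO livers. DIO replicates 2 and 3 lay below all treated livers, and DIO replicate 1 had exactly the value of BMJ + DIO replicate 1, so the groups touched at that value. Mttp averaged 7.66 ± 0.10 (SD, n = 4) in BMJ + DIO and 7.23 ± 0.42 (SD, n = 3) in DIO. The difference was 0.43 on the log2 scale with a standard error of 0.20, or 1.35-fold with a 95% interval of 0.969 to 1.88. It had the smallest unadjusted p of the 10 members in limma (0.069), with an adjusted p of 0.571, and by p it ranked 2070 among the tested IDs. Without DIO replicate 3 the difference shrank to 0.20 (limma, unadjusted p = 0.123, adjusted p = 0.858).

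Position within an array does not depend on how wide that array's signal range is. Counted from the brightest of the 33426 IDs, Mttp ranked 976, 998, 946 and 1070 in the BMJ + DIO livers, against 1120, 1125 and 1274 in the DIO livers. All treated livers thus placed Mttp higher than all DIO livers. It was the one member of 10 whose ranks separated the groups, a pattern shared by 10.8% of the tested IDs. After cyclic loess, which evens out differences that follow brightness, Mttp was 0.19 higher in BMJ + DIO with no overlap (limma, unadjusted p = 0.014, adjusted p = 0.530). That separation was shared by 10.5% of tested IDs.

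Apob encodes the structural protein that stays with each VLDL particle. It gave log2 values of 11.19, 11.36, 11.28 and 11.36 in the BMJ + DIO livers, against 11.32, 11.09 and 10.68 in the DIO livers. DIO replicate 1 lay inside the treated range and the other DIO livers below it. Apob averaged 11.30 ± 0.08 (SD, n = 4) in BMJ + DIO and 11.03 ± 0.32 (SD, n = 3) in DIO. The log2 difference was 0.27 with a standard error of 0.15, or 1.20-fold with an interval of 0.930 to 1.55 (limma, adjusted p = 0.571), and it was 0.091 without DIO replicate 3 and 0.41 without DIO replicate 1. By rank Apob stood at 38, 37, 38 and 37 in the BMJ + DIO livers, against 38, 39 and 49 in the DIO livers. DIO replicate 3 thus read lowest by rank as well as by log2 value.

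**Figure D2:**
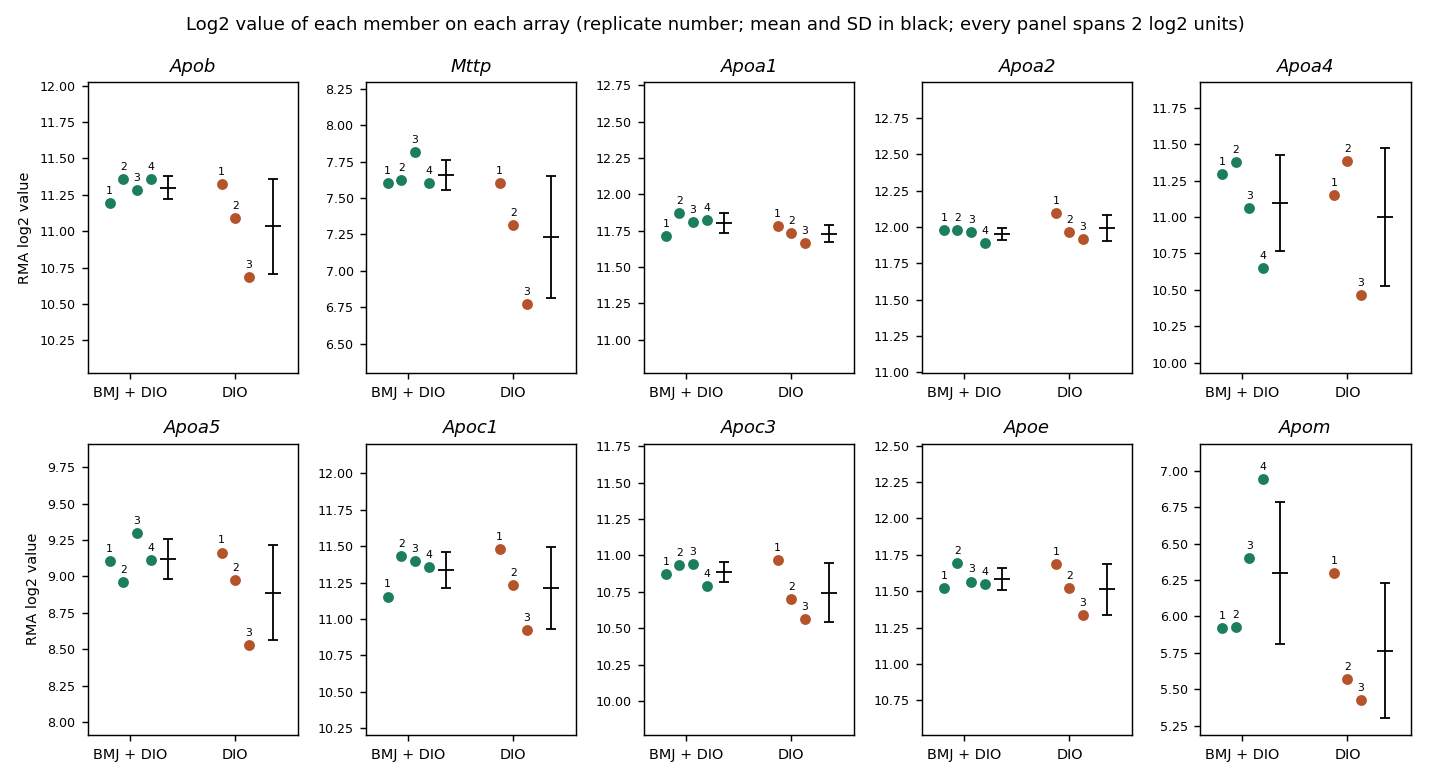
RMA log2 value (y axis) of each of the 10 members in the BMJ + DIO livers (green, n = 4) and DIO livers (orange, n = 3); points carry the replicate number, black bars show mean and SD, and each panel spans the same 2 log2 units. The groups overlap or touch in every panel, and DIO replicate 3 is the lowest point in all panels but Apoa2.

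The upstream sequence of Mttp and Apob is shown because these genes act together on the same particle. Sequences and positions are those of RefSeq (GRCm38.p6), which gave windows for 8 of 10 members (12 windows, since some genes have several starts). Each run is printed 5′ to 3′ in the direction of the gene and ends just before the gene model. Apob is a 39211-base gene at chr12:7977629-8016839, and Mttp a 53564-base gene at chr3:138089855-138143418. Capitals mark matches to 6 letter strings, searched on both strands: TATAAA, the E-box core CACGTG, the box CCAAT, the single nuclear receptor copy AGGTCA, the HNF4A-type string CAAAGTCCA and the DR1-type string TGACCTTTG, which holds the reverse complement of the receptor copy.
Apob chr12:7977427-7977628, plus strand: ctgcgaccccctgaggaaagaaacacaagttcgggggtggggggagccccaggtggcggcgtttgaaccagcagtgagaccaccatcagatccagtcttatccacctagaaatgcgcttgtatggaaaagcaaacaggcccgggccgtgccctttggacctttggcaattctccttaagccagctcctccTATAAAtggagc
Mttp chr3:138143419-138143668, minus strand: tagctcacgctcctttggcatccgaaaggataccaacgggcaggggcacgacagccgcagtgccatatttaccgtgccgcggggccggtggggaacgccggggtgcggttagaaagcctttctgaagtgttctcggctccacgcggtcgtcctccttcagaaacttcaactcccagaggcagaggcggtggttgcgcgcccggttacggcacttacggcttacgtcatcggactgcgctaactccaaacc

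Apob carried TATAAA at bases 60 to 55 before the transcript start that RefSeq uses for its window. That window ends at base 7977676, inside the gene model. The printed run stops at 7977628, so the match lies nearer to its end. TATAAA was held on either strand by 5 of the 12 windows of members, against 12.4% of all 32851 windows of 250 upstream bases. These 5 windows belong to 4 genes, Apoa2, Apoa5, Apob and Apoe, since both Apoa5 windows overlap and hold the same match. The Mttp window matched 0 of the 6 strings. CAAAGTCCA and TGACCTTTG were found in 0 of the 12 windows of members, against 0.384% and 0.426% of all windows. At shares this low, 0 of 12 says little. Only exact strings were searched, so sites with other letters were not looked for. The string AGGTCA occurred in 1 of the 12, an Apoa2 window, against 14% of all windows, and CCAAT in 2 of the 12, both of Apoa2, against 33.8%.

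Apoa1 and Apoa2 encode the main structural proteins of HDL, and Apoa1 also activates the enzyme that esterifies plasma cholesterol. Both read near the top of every array, with Apoa1 between rank 6 and 11 and Apoa2 between rank 3 and 9. Each ID has its own probes, so such ranks are signal and not amount of RNA. Apoa1 gave 11.71, 11.87, 11.81 and 11.82 in the BMJ + DIO livers, against 11.78, 11.74 and 11.67 in the DIO livers. DIO replicates 1 and 2 lay inside the treated range and DIO replicate 3 just below it. The log2 difference was 0.074 with a standard error of 0.054, and the 95% interval of 0.961 to 1.15-fold was among the narrowest of the set (limma, adjusted p = 0.575). The difference was 0.044 without DIO replicate 3 and -0.12 after cyclic loess. Cyclic loess on the 6 arrays other than DIO replicate 3 gave 0.0011.

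Apoa2 gave 11.98, 11.98, 11.96 and 11.89 in the BMJ + DIO livers, against 12.09, 11.96 and 11.92 in the DIO livers. It was the member with the lowest mean difference, at -0.038 with a standard error of 0.055 and an interval of 0.887 to 1.07-fold (limma, adjusted p = 0.730). It was 0.0125 without DIO replicate 1 and -0.23 after cyclic loess. Apoa2 was also the one member for which DIO replicate 3 was not the lowest array. Its values covered 0.20 log2 units over all 7 mice, as did those of Apoa1, the smallest ranges in the set. For these 2 genes, as for Apoc1, Apoc3 and Apoe, the intervals held no change as large as 1.5-fold in either direction.

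Apom encodes a lipocalin that sits on HDL and carries sphingosine-1-phosphate. It varied most, over 1.52 log2 units, and had the largest mean difference. Its log2 values were 5.92, 5.93, 6.40 and 6.94 in the BMJ + DIO livers, against 6.29, 5.57 and 5.43 in the DIO livers. BMJ + DIO replicates 3 and 4 lay above all DIO livers, while replicates 1 and 2 lay below DIO replicate 1. Apom averaged 6.30 ± 0.49 (SD, n = 4) in BMJ + DIO and 5.76 ± 0.46 (SD, n = 3) in DIO. The log2 difference of 0.53 had a standard error of 0.33, or 1.45-fold with an interval of 0.823 to 2.54 (limma, unadjusted p = 0.161, adjusted p = 0.571). It was 0.36 without DIO replicate 3, 0.32 without BMJ + DIO replicate 4 and 0.80 without DIO replicate 1. By rank Apom stood at 3452, 3563, 2700 and 1757 in the BMJ + DIO livers, against 2967, 4262 and 3869 in the DIO livers, and these overlapped as well.

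Among the remaining apolipoproteins, Apoc3 and Apoa5 act on triglyceride clearance. Several apolipoprotein genes share a locus. Apoa1, Apoc3, Apoa4 and Apoa5 lie within 43.3 kb on chromosome 9 (46228630 to 46271921). Apoc3 inhibits lipoprotein lipase and the uptake of remnant particles, while Apoa5 promotes clearance by lipase. Apoc3 gave 10.87, 10.93, 10.94 and 10.79 in the BMJ + DIO livers, against 10.97, 10.70 and 10.57 in the DIO livers. DIO replicate 1 was above all treated livers and the other DIO livers below them. The log2 difference was 0.14 with a standard error of 0.10 and an interval of 0.927 to 1.31-fold (limma, adjusted p = 0.576), and 0.050 without DIO replicate 3.

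Apoa5 gave 9.11, 8.96, 9.30 and 9.11 in the BMJ + DIO livers, against 9.16, 8.98 and 8.53 in the DIO livers. Only DIO replicate 3 lay outside the treated range. The log2 difference of 0.23 had a standard error of 0.16 and an interval of 0.888 to 1.55-fold (limma, adjusted p = 0.574), and it became 0.050 without that array and 0.0033 after cyclic loess. Apoa5 (chr9:46268608-46271921) is shown because it was the member whose windows held both an E-box string and a TATA string.
Apoa5 chr9:46268358-46268607, plus strand: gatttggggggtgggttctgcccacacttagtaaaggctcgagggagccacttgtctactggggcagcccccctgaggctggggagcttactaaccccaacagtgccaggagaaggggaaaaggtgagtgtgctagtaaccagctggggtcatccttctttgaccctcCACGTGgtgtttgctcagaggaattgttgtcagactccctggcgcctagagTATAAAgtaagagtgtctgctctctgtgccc
Apom chr17:35131802-35132051, minus strand: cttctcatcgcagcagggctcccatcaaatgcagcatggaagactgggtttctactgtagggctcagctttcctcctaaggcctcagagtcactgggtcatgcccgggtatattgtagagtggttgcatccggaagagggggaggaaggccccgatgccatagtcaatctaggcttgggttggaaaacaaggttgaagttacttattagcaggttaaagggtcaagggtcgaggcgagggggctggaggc

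In Apoa5 the string CACGTG lay 82 to 77 bases and TATAAA 31 to 26 bases before the transcript start of the window shown. From the start of the other Apoa5 window the same matches lay 107 to 102 and 56 to 51 bases away. CACGTG occurred in 6.02% of all windows. The Apom sequence, from the member with the largest difference (chr17:35128997-35131801), matched 0 of the 6 strings. The matches are letters in a window and say nothing of what binds there.

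Apoa4 encodes an apolipoprotein of intestine and liver that helps particles grow before secretion. Its log2 values were 11.29, 11.38, 11.06 and 10.65 in the BMJ + DIO livers, against 11.15, 11.38 and 10.47 in the DIO livers. Both groups covered almost the same range. The log2 difference was 0.10 with a standard error of 0.28 and an interval of 0.670 to 1.70-fold (limma, adjusted p = 0.869). It was -0.17 without DIO replicate 3. BMJ + DIO replicate 4 gave the lowest treated value of Apoa4 and the highest treated value of Apom. By rank Apoa4 was lowest of all 7 livers in that mouse, at 93, and highest in DIO replicate 2, at 21.

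Apoe guides remnant particles to liver receptors, and Apoc1, its neighbour within 11.8 kb on chromosome 7 (19689480 to 19701310), slows that uptake. Apoe gave 11.52, 11.69, 11.57 and 11.55 in the BMJ + DIO livers, against 11.68, 11.52 and 11.33 in the DIO livers. Its log2 difference was 0.070 with a standard error of 0.092 and an interval of 0.898 to 1.23-fold (limma, adjusted p = 0.709). Apoc1 gave 11.15, 11.43, 11.40 and 11.36 in the BMJ + DIO livers, against 11.48, 11.23 and 10.93 in the DIO livers. Its log2 difference was 0.12 with a standard error of 0.14 and an interval of 0.854 to 1.39-fold (limma, adjusted p = 0.676). For Apoc1, DIO replicate 1 lay above the treated range, DIO replicate 2 inside it and DIO replicate 3 below it. For Apoe, DIO replicate 1 lay inside the treated range, DIO replicate 2 just below it and DIO replicate 3 further below. When DIO replicate 3 was left out, the difference was -0.020 for Apoe and -0.022 for Apoc1.

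**Figure D3:**
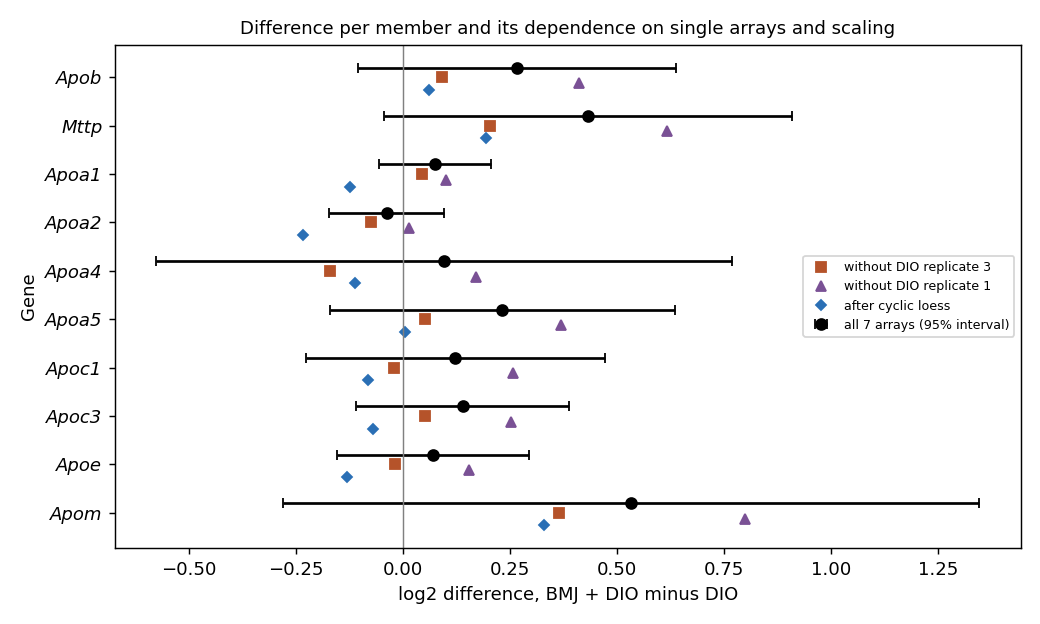
Log2 difference, BMJ + DIO minus DIO (x axis), for each member (y axis), with all 7 arrays (black circles, 95% interval from limma), without DIO replicate 3 (orange squares), without DIO replicate 1 (purple triangles) and after cyclic loess (blue diamonds). All black intervals include 0, and only Mttp, Apom, Apob and Apoa5 stay at or above 0 in all of the settings drawn.

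The members were also set beside IDs of similar brightness. Of 148 IDs that averaged at least 10, 7 were members: Apoa1, Apoa2, Apoa4, Apob, Apoc1, Apoc3 and Apoe. The median difference was 0.10 over these 7 members and 0.19 over the 148 IDs, and 85.8% of the 148 were higher with the juice. When DIO replicate 3 was left out it was -0.020 over the 7 members and 0.054 over the 148 IDs. After cyclic loess it was -0.11 over the 7 members and -0.018 over the 148 IDs. Then 1 of the 7, Apob, was higher in BMJ + DIO, against 48.5% of all tested IDs, bright or dim. The share among the 148 IDs after cyclic loess was not counted. Evened out in this way, DIO replicate 3 read highest of the 7 arrays for Apoa1, Apoa2, Apoc1, Apoc3 and Apoe, but not for Apoa4 and Apob. Cyclic loess on the 6 arrays other than DIO replicate 3 gave a median of 0.0042 over the 10 members. In that setting 6 of 10 were higher in BMJ + DIO, against 49.5% of tested IDs. The spread among mice was wider in the DIO group for 8 of 10 members, as it was for 72.4% of all tested IDs.

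**Figure D4:**
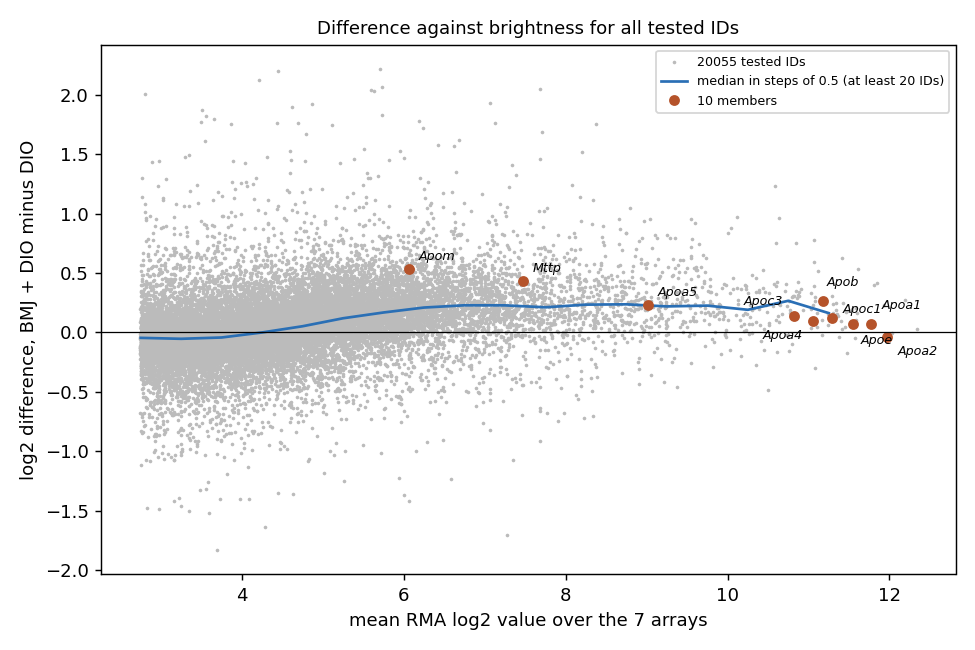
Log2 difference, BMJ + DIO minus DIO (y axis), against the mean RMA log2 value over the 7 arrays (x axis) for the 20055 tested IDs (grey), their running median (blue line) and the 10 members (orange). Above a mean of 7 the line runs near 0.2. Apom, at a mean of 6.07, has the largest difference (0.53), and Mttp (0.43), Apob (0.27) and Apoa5 (0.23) also exceed 0.2. Apoa1, Apoa2, Apoe, Apoa4, Apoc1 and Apoc3 lie below the median of 0.19 for IDs of 10 or more.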

How the data were processed

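For each liver the authors deposited log2 expression values, 1 for every Ensembl gene ID. These are RMA output (background correction, normalization across arrays and a summary per gene) from Affymetrix Power Tools, according to the submitters' processing notes, which also name GRCm38 (mm10). Versions, array type and filters: not given in the sources used here. Groups and replicate numbers come from the sample titles.

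Gene symbols of the 10 members were paired with Ensembl IDs as given for this work. The table of RefSeq genes (GRCm38.p6) holds 0 Ensembl IDs and could not check the pairing. For the same reason the planned lists of other lipoprotein genes and of cell type markers could not be matched to IDs and were not tested, and the tissue was not checked against liver markers. The members and lists were chosen with earlier results of these data known. All 10 members are named with every array's value, as the rule for named genes asks.

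Analysis used R 4.3.3 and limma 3.58.1. The lowest 40% of IDs by mean over all arrays (13371 IDs) were left out. lmFit and eBayes compared BMJ + DIO with DIO over 20055 IDs, with group as the sole term, two-sided, and Benjamini-Hochberg adjustment over all of them. The fit was checked on simulated data with independent noise of equal spread on all arrays. Those data lack the shift of DIO replicate 3, so the check does not show how the fit handles it. With 4 and 3 arrays, precision is limited by their number. Alternatives were other filters, 4 scalings, 2 variance models, the replicate number as a block, leaving out each array, and cyclic loess with DIO replicate 3 left out. Comparing within-array ranks was added after seeing the data.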

Additional observations from a re-analysis of the deposited data

Results flagged for a closer look

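Mttp in the BMJ + DIO group was the single value set of 10 examined (1 group of 4 livers per member) in which 1 liver stood apart. The gap between BMJ + DIO replicate 3, at 7.81, and the next liver, at 7.62, made up 0.912 of the group's whole range, above Dixon's 95% critical value for 4 samples. The other 3 livers lay between 7.60 and 7.62. Chance flags about 1 in 20 groups. Without that replicate the log2 difference between BMJ + DIO and DIO was 0.38, against 0.43 with all arrays.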

How the results depend on the processing

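In limma's test 0 of 10 members passed an adjusted p of 0.05 under all 17 alternatives, and neither did any other tested ID. The count at an unadjusted p under 0.05, 0 with all arrays, was 1 (Mttp) after quantile normalization, median centring, cyclic loess, equal mean and SD, and cyclic loess without DIO replicate 3, where 6.93% to 9.1% of all IDs passed. It ran from 0 to 3 when 1 array was left out. The 3, Apob, Apoc3 and Mttp, came without DIO replicate 1, where 29.1% of all IDs passed too. Members without overlap, 0 at first, numbered 1 (Mttp) under the same 5 settings (9.35% to 17.3% of all IDs) and by rank within arrays (10.8%), and 0 to 5 without 1 array, with 5 without DIO replicate 1 (39.6% of all IDs) and 2 without BMJ + DIO replicate 1 (7.59%). The 9 higher members became 4 after quantile normalization (49.2% of all IDs) or cyclic loess (48.5%) and 2 with equal mean and SD (46.9%). They numbered 6 to 10 without 1 array (47% to 56.6% of all IDs). The median difference of 0.13 became -0.0725 after quantile normalization, -0.0772 after cyclic loess and -0.28 with equal mean and SD. With cyclic loess on the 6 arrays other than DIO replicate 3 it was 0.0042. Leaving out DIO replicate 3 gave the lowest median of any single omission, 0.047, and leaving out DIO replicate 1 the highest, 0.25.

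Signs turned in 24 of 170 combinations of member and alternative. After quantile normalization, cyclic loess, and equal mean and SD, the differences were -0.0913, -0.12 and -0.39 for Apoa1, -0.12, -0.11 and -0.31 for Apoa4, -0.0554, -0.0830 and -0.30 for Apoc1, -0.0897, -0.0715 and -0.26 for Apoc3, and -0.10, -0.13 and -0.38 for Apoe. With equal mean and SD, Apoa5 was at -0.0613 and Apob at -0.15. Cyclic loess on the 6 arrays other than DIO replicate 3 gave -0.21 for Apoa4, -0.0650 for Apoc1 and -0.0626 for Apoe. Leaving out single arrays moved Apoa4 between -0.17 (DIO replicate 3) and 0.29 (DIO replicate 2). The range was -0.0222 to 0.26 for Apoc1 and -0.0199 to 0.15 for Apoe, lowest without DIO replicate 3 and highest without DIO replicate 1. For Apoa2 these omissions gave -0.0749 (DIO replicate 3) and 0.0125 (DIO replicate 1). Mttp and Apom were higher in BMJ + DIO under all 17 (0.16 to 0.62 and 0.32 to 0.80), though filters and variance models cannot turn a sign. The cause was not tested. With the replicate block, the median was 0.20. The block takes BMJ + DIO replicate 4 out of the difference because no DIO liver shares its number. In that fit 0 members passed an adjusted p of 0.05, and neither did any other tested ID. Equal numbers deviated apart (correlations -0.36, -0.09 and -0.30), and nothing in the labels pairs them. Signal over background was not examined here.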
